A study of Mus musculus with 16 samples.

Results

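The genes of NAD synthesis and use examined here were the nicotinamide riboside kinases Nmrk1 and Nmrk2, the salvage and adenylylation enzymes Nampt, Nmnat1 and Nmnat3, the NAD kinase Nadk2, the methyltransferase Nnmt, and the NAD-consuming enzymes Sirt1, Sirt3 and Parp1. These 10 of the 47643 genes in the RNA table were taken by symbol, and all 10 were found. The set was built around Nmrk2, which had been chosen by its measured rise in 24-month-old knockout muscle, so that rise and every comparison that uses those samples is given for Nmrk2 as a description without a test. RNA came from the tibialis anterior, a fast-twitch muscle at the front of the lower leg, of 16 mice labelled male C57BL6/J. WT and UBR4 mKO mice were compared at 6 and at 24 months of age, with 4 mice in each of the 4 groups. Mice of every group were homozygous for floxed UBR4 alleles and received tamoxifen as young adults. Only UBR4 mKO mice carried ACTA1-Cre, an inducible recombinase driven by a promoter of skeletal myofibers, so other cells of the muscle kept UBR4. Levels are in TPM, transcripts per 1000000, a unit that corrects for gene length and has the same sum in each sample. It keeps no read numbers, so the depth behind a level is unknown.

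NAD carries electrons in energy metabolism and is also consumed as a substrate by sirtuins, poly(ADP-ribose) polymerases (PARPs) and NAD glycohydrolases, which release nicotinamide. Cells rebuild NAD by phosphorylating nicotinamide riboside with the NMRK kinases, or by joining nicotinamide to phosphoribosyl pyrophosphate with NAMPT. Both routes give nicotinamide mononucleotide, which the NMNAT enzymes turn into NAD, and NMRK2 is known as the kinase form of striated muscle.

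Nmrk2 lies on the minus strand of GRCm38 at chr10:81198170-81202051, and Nmrk1 on the plus strand at chr19:18631950-18652428. Their promoters are shown because the kinases share a reaction but differed widely in level. The sequences run 5′ to 3′ from RefSeq on GRCm38.p6 and stop before the first annotated base of each gene, at chr10:81202052-81202287 for Nmrk2 and chr19:18631766-18631949 for Nmrk1. Capitals mark a match to TATAAA.
Nmrk2 promoter: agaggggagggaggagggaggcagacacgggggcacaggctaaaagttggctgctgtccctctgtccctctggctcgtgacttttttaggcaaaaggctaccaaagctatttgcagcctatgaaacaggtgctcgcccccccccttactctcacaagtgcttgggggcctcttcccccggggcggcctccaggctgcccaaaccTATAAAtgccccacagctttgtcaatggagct
Nmrk1 promoter: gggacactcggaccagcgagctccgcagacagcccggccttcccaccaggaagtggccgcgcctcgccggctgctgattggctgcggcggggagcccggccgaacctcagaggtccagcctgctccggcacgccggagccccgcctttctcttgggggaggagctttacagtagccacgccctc
The 250 bases before the RefSeq start, which lies 14 bases past the first annotated base of Nmrk2 and 66 past that of Nmrk1, were searched on both strands for TATAAA, for CAGCTG, which is one form of the E-box, and for the MEF2 box and the CArG box of muscle genes. The motif TATAAA, found in 12.4% of 32851 RefSeq promoters, was present in Nmrk2, where it began 46 bases before the RefSeq start and 32 bases before the gene's first annotated base, and in no other of the 8 genes of the set with a listed promoter. CAGCTG was present in Nampt, 105 bases before its RefSeq start, and in 13% of all promoters. No window of the set held a MEF2 box or a CArG box, which 2.92% and 1.47% of promoters held. The GC content was 58.8% for Nmrk2 and 69.2% for Nmrk1, against a median of 52.4% over all promoters.

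Before the comparisons, the samples were checked. Ubr4, the targeted gene, was at 9.09 to 15.7 TPM in 6-month-old WT and 4.91 to 6.54 TPM in 6-month-old UBR4 mKO, and at 17.0 to 21.1 TPM and 4.28 to 14.6 TPM in the 24-month-old groups. All 9 genes that mark skeletal myofibers were abundant in every sample, with a summed level of 65175 to 87099 TPM. Xist, which female cells express, was at 0.711 to 23.8 TPM in the 8 samples from 6-month-old mice and at most 0.0252 TPM in those from 24-month-old mice, so the 6-month-old samples go against their label in part and age cannot be told apart from this difference. The Y-linked Ddx3y was at 13.5 to 30.5 TPM in the 24-month-old samples. At 6 months it was at 2.29 to 13.4 TPM in WT, and at 13.2 to 22.6 TPM in replicates 1 to 3 and 0.0730 TPM in replicate 4 of UBR4 mKO. Most UBR4 mKO samples were thus above most WT samples in this gene at 6 months, and the part of this in the results was not tested. Replicate 3 of 24-month-old UBR4 mKO stood apart on the third principal component (39.3, against -16.6 to 8.88 for the other samples). Replicate 4 of 6-month-old UBR4 mKO and this sample are called the samples that stood apart. Values without these samples are given beside the results they bear on most. Mitochondrially encoded transcripts took 52.6% to 59.7% of TPM in 6-month-old WT and 46.1% to 51.7% in the other groups. TPM has a fixed sum, and the median gene was 0.33 higher on the log2 scale in UBR4 mKO at 6 months, 0.26 higher in WT at 24 than at 6 months, and within 0.05 of 0 in the other pairwise comparisons. The median of the interaction over all genes was -0.31. The main results are therefore also given relative to the median gene or after median-of-ratios scaling, which sets the median gene near 0.

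Nmrk2 was the most abundant of the 10 genes in all 16 samples, and its range overlapped that of no other gene of the set. Its level in 6-month-old WT was 135.2, 96.1, 98.8 and 122.5 TPM in replicates 1 to 4. In 6-month-old UBR4 mKO it was 221.2, 285.8, 308.1 and 166.1 TPM. Every UBR4 mKO sample was above every WT sample at this age, and the lowest was replicate 4. In 24-month-old WT it was 108.5, 85.2, 107.5 and 84.2 TPM, and in UBR4 mKO of that age 194.5, 268.9, 368.2 and 157.5 TPM. The groups did not overlap at this age either, and the highest sample was replicate 3, the one that stood apart. That sample also had the lowest Ubr4 of its group, 4.28 TPM, whereas the sample with the highest Ubr4, replicate 2 with 14.6 TPM, had the next highest Nmrk2.

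**Figure D1:**
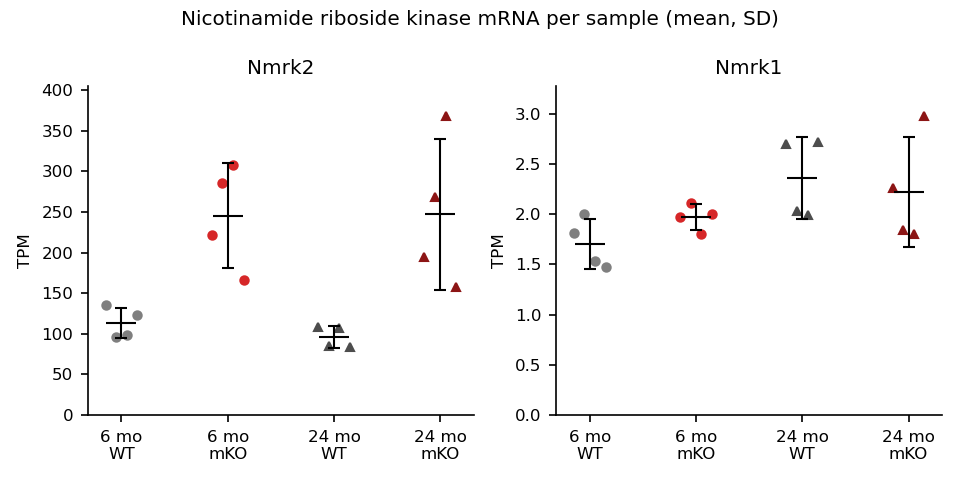
Level of Nmrk2 (left) and Nmrk1 (right) in TPM in the 4 samples of each group, with each sample as a point (circles, 6 months; triangles, 24 months; grey, WT; red, UBR4 mKO) and the group mean with its SD as a bar. UBR4 mKO samples of Nmrk2 lie at 157.5 to 368.2 TPM and WT samples at 84.2 to 135.2 TPM, whereas Nmrk1 stays between 1.48 and 2.98 TPM with overlapping genotypes.

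At 6 months, the age that did not enter the choice of Nmrk2, UBR4 mKO samples averaged 245.3 ± 64.4 TPM (SD, n = 4), against 113.1 ± 18.9 TPM (SD, n = 4) for WT. The increase was 2.13-fold, or 1.09 on the log2(TPM + 0.1) scale (SE 0.23, limma adjusted p = 0.00198). Relative to the median gene it was 0.76. After median-of-ratios scaling the log2 fold change was 0.74 (SE 0.29, limma adjusted p = 0.0904), which did not pass the threshold of 0.05. On that scale replicate 4 of UBR4 mKO, at 141.9, fell below WT replicates 1 and 4, at 156.8 and 170.8. Without both samples that stood apart, a choice made after seeing the data, the log2 fold change was 1.26 (limma adjusted p = 0.000152) on TPM and 0.94 (limma adjusted p = 0.00749) after scaling. It passed the threshold in all 16 fits that left out 1 sample, with values from 0.97 to 1.26. It did not pass with Kruskal-Wallis and Dunn's test, the test named in the study's methods (adjusted p = 0.0845).

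On TPM, levels of several other gene lists also did not overlap between the genotypes at 6 months. In this comparison 90.3% of all genes tested had a log2 fold change above 0, and the median gene was 0.33 higher. The sums below are on TPM only and were not examined after median-of-ratios scaling, so their separation may not hold on that scale. The summed level of 6 denervation genes was 17.4 to 24.3 TPM in WT and 44.8 to 55.4 TPM in UBR4 mKO, with Chrng, the fetal acetylcholine receptor subunit, at 0 to 0.0113 TPM and 0.294 to 0.882 TPM. That of 5 genes of satellite cells and regenerating myofibers was 14.5 to 20.6 TPM and 25.9 to 36.3 TPM, and that of 6 endothelial genes 73.0 to 99.5 TPM and 114.3 to 123.1 TPM. The 9 myofiber genes summed to 65175 to 74175 TPM and 79786 to 86412 TPM. At 24 months the ranges of these 4 sums overlapped between the genotypes. The sums of 7 adipocyte genes, 294.4 to 326.5 TPM in WT and 396.0 to 433.3 TPM in UBR4 mKO at 6 months, and of 7 leukocyte genes, 13.8 to 20.5 TPM and 46.7 to 159.5 TPM, did not overlap at either age, as was so for Nmrk2 on TPM. Most of the adipocyte sum was Fabp4, at 277.3 to 317.6 TPM and 386.8 to 414.5 TPM at 6 months, which endothelial cells also express. All other genes of the adipocyte list overlapped between the genotypes at 6 months, among them Adipoq at 0.574 to 1.85 TPM and 1.06 to 1.54 TPM. The part of all these lists in the values of Nmrk2 and of the other NAD genes was not tested. In bulk muscle, more cells of a type and more RNA per cell cannot be told apart.

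At 24 months, the comparison by which Nmrk2 was selected, UBR4 mKO samples averaged 247.2 ± 93.0 TPM (SD, n = 4), against 96.3 ± 13.5 TPM (SD, n = 4) for WT. The log2 fold change was 1.29 on TPM, 1.27 after median-of-ratios scaling and 1.08 without replicate 3 of UBR4 mKO. The change with age was -0.23 in WT on TPM and -0.50 after scaling. In UBR4 mKO it was -0.024 on TPM and 0.034 after scaling, and -0.41 and -0.45 without both samples that stood apart. The difference of the genotype effect between ages was 0.20 on TPM and 0.54 after scaling, and -0.19 and 0.053 without both samples, so on TPM its sign depended on them. None of these was tested.

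Some exon sequence of Nmrk2 is shared with another gene. The antisense gene Atcayos covers 270 of its exon bases on the opposite strand, 14.6% of them, and the labels name a stranded kit whereas the study's methods name an unstranded one, so the use of strand in counting is not settled. Atcayos was at 28.3 to 44.1 TPM in 6-month-old WT and 34.5 to 39.1 TPM in 6-month-old UBR4 mKO. At 24 months it was at 34.8 to 51.0 TPM in WT and 31.8 to 62.2 TPM in UBR4 mKO. Its genotypes overlapped at both ages, and its part in the Nmrk2 values was not tested.

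Nmrk1, the broadly expressed kinase of the same reaction, was far less abundant and did not separate the genotypes. Its levels were 1.81, 2.01, 1.53 and 1.48 TPM in 6-month-old WT and 1.98, 2.11, 1.81 and 2.00 TPM in 6-month-old UBR4 mKO. At 24 months they were 2.70, 2.03, 1.99 and 2.73 TPM in WT and 2.26, 1.84, 1.80 and 2.98 TPM in UBR4 mKO. The genotypes overlapped at both ages. Its log2 fold change was 0.21 (SE 0.17, limma adjusted p = 0.296), or -0.13 after median-of-ratios scaling, at 6 months and -0.098 (SE 0.17, limma adjusted p = 0.944) at 24 months. With age in WT it was 0.44 (SE 0.17, limma adjusted p = 0.0577), and 0.18 after median-of-ratios scaling. The ratio of Nmrk2 to Nmrk1, in TPM, was 47.9 to 83.0 in 6-month-old WT and 82.9 to 170.5 in 6-month-old UBR4 mKO. At 24 months it was 30.9 to 54.0 in WT and 52.8 to 204.4 in UBR4 mKO.

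At 6 months, 4 of the 10 genes passed the threshold in UBR4 mKO against WT, all 4 higher: Nmrk2, Sirt3, Nmnat3 and Nmnat1. Among all 10628 genes tested, 44.9% passed and 43.7% passed as higher, so this share is close to the background. The median log2 fold change of the 10 genes was 0.28, against 0.33 for the median gene of the table. Of the 10 genes, 4 were above that median gene and 6 below it, and Nmrk2 was the only one above it by more than 0.06. After median-of-ratios scaling 16.8% of all genes passed, and of the set only Parp1 passed, as lower.

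**Figure D2:**
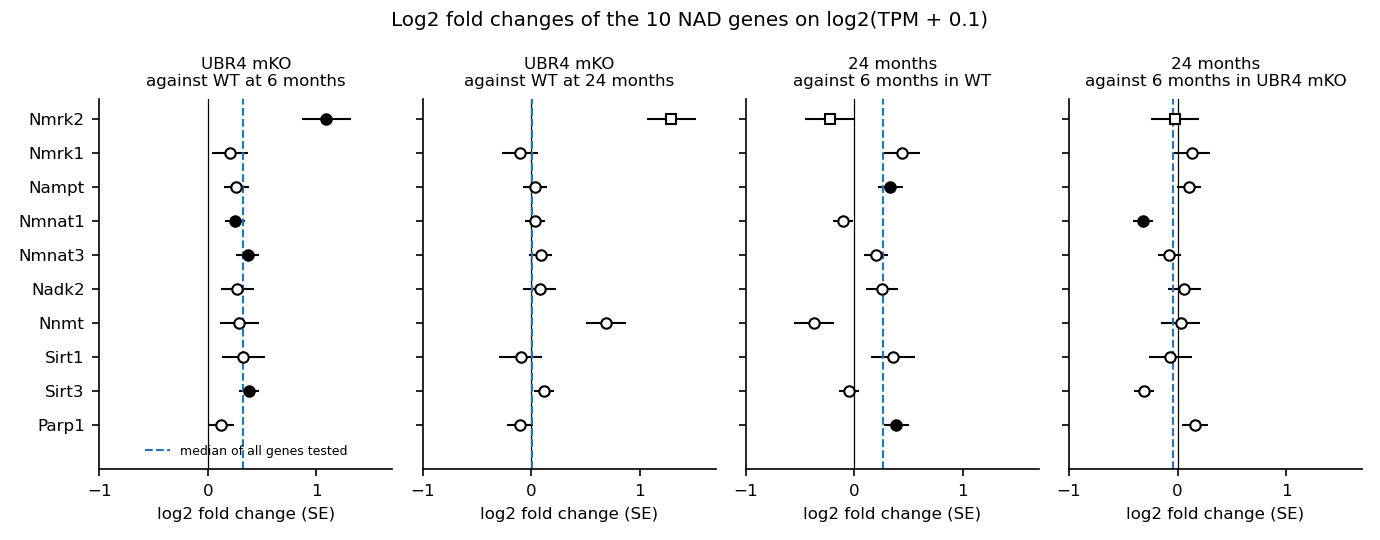
Log2 fold change of each of the 10 genes with its SE (horizontal bar) in 4 comparisons on log2(TPM + 0.1), with filled circles for genes past the limma adjusted threshold of 0.05, open circles for the others, squares for comparisons in which Nmrk2 was not tested, and a dashed line at the median of all genes tested. Nmrk2 stands 0.76 to the right of the dashed line at 6 months and 1.28 at 24 months, Nnmt 0.68 at 24 months, while Sirt3, Nmnat3 and Nmnat1 at 6 months lie within 0.08 of it and had 0.029, 0.018 and -0.10 after median-of-ratios scaling.

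Sirt3, the main mitochondrial NAD-dependent deacetylase (GRCm38 chr7:140863666-140882309, minus strand), was at 21.8, 25.0, 24.3 and 23.3 TPM in 6-month-old WT and 27.4, 29.1, 36.3 and 30.8 TPM in 6-month-old UBR4 mKO. The groups did not overlap. The log2 fold change was 0.38 (SE 0.090, limma adjusted p = 0.0044), but 0.029 after median-of-ratios scaling (limma adjusted p = 0.883). Without both samples that stood apart it was 0.38 (limma adjusted p = 0.00708) on TPM. Its exons overlap those of the opposite-strand genes Ric8a and Psmd13 by 418 and 342 bases, 7.0% and 5.73% of its exon length. The stretch shared with Ric8a, 416 bases at 100% identity, was 29.4% of the Sirt3 transcript aligned. No level of Ric8a was found by that symbol. Psmd13, a proteasome subunit, was at 24.6 to 29.9 TPM in 6-month-old WT and 34.1 to 37.4 TPM in 6-month-old UBR4 mKO, and its part in the Sirt3 value was not tested.

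The NMNAT enzymes make NAD from nicotinamide mononucleotide. Nmnat1, the nuclear form (chr4:149467572-149485202, minus strand), was at 11.7, 14.4, 12.6 and 10.8 TPM in 6-month-old WT and 13.9, 14.3, 14.8 and 15.9 TPM in 6-month-old UBR4 mKO. One WT sample, replicate 2, lay within the UBR4 mKO range. The log2 fold change was 0.25 (SE 0.092, limma adjusted p = 0.0359) on TPM and -0.10 (limma adjusted p = 0.405) after median-of-ratios scaling, where its sign was reversed. It passed in 10 of the 16 fits that left out 1 sample, and without both samples that stood apart it had 0.22 (limma adjusted p = 0.077). It did not pass with the replicate block or in the fit of only the groups compared (limma adjusted p = 0.0625 and 0.0767). Nmnat3, described as a mitochondrial form (chr9:98287435-98420438, plus strand), was at 5.54, 6.49, 5.04 and 4.67 TPM in 6-month-old WT and 6.33, 7.27, 7.50 and 6.87 TPM in 6-month-old UBR4 mKO. The groups overlapped at WT replicate 2, and the log2 fold change was 0.37 (SE 0.11, limma adjusted p = 0.0149) on TPM and 0.018 after scaling. Without WT replicate 4 the limma adjusted p of Nmnat3 was 0.0532, and without both samples that stood apart 0.0229.

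The other genes of the set did not pass the threshold at 6 months. Nampt, the rate-limiting enzyme of nicotinamide salvage (chr12:32819545-32853349, plus strand), averaged 54.3 ± 2.97 TPM (SD, n = 4) in UBR4 mKO, against 45.4 ± 5.34 TPM (SD, n = 4) for WT, a log2 fold change of 0.26 (limma adjusted p = 0.0681). It passed without replicate 3 of 24-month-old UBR4 mKO, which is not compared here but enters the shared estimate of the spread (limma adjusted p = 0.0304), and not without both samples that stood apart (0.25, limma adjusted p = 0.0691). It also passed without 6-month-old WT replicate 2 (0.33, limma adjusted p = 0.0247). The fit of only the groups compared and that with array weights called it too (limma adjusted p = 0.0423 and 0.0095). Nadk2, the mitochondrial kinase that makes NADP, and Sirt1, the nuclear deacetylase, had log2 fold changes of 0.27 and 0.33, and of 0.23 and 0.26 without both samples (limma adjusted p = 0.183 and 0.156). Nadk2 passed without 6-month-old WT replicate 2 (0.39, limma adjusted p = 0.0329), and Sirt1 with array weights (0.27, limma adjusted p = 0.0275). Nnmt, which methylates nicotinamide and so removes it from salvage (chr9:48591877-48605153, minus strand), had 0.29 (SE 0.18). After median-of-ratios scaling the values of all 4 were below 0, from -0.091 to -0.014. Parp1, which uses NAD to mark DNA damage (chr1:180568924-180601254, plus strand), had 0.12 (SE 0.12) on TPM and -0.23 (limma adjusted p = 0.0326) after median-of-ratios scaling. On that scale its WT samples were at 17.6 to 18.3 and its UBR4 mKO samples at 14.5 to 16, without overlap, whereas on TPM they overlapped. Its transcript is 90.7% identical to the pseudogene Gm49061 over 428 bases, so some of its reads may be assigned either way.

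**Figure D3:**
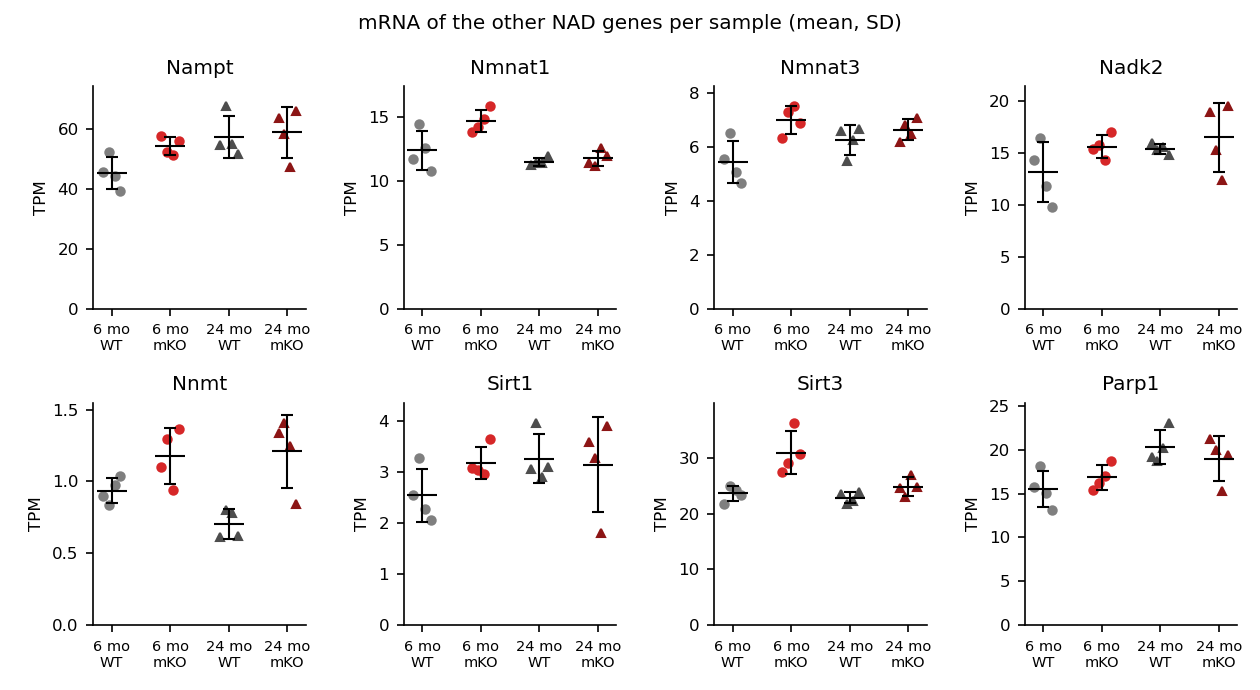
Level in TPM of the 8 genes of the set other than the NMRK kinases, with each sample as a point (circles, 6 months; triangles, 24 months; grey, WT; red, UBR4 mKO) and the group mean with its SD as a bar. Sirt3 has its 4 highest values, 27.4 to 36.3 TPM, in 6-month-old UBR4 mKO, and 27.0 TPM in 1 sample of 24-month-old UBR4 mKO comes next, and Nnmt is below 0.81 TPM in all 24-month-old WT samples.

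At 24 months, 0 of the 9 genes other than Nmrk2 passed the limma threshold in UBR4 mKO against WT, and 1 of them, Nnmt, had an unadjusted p under 0.05. Among all genes tested, 0.630% passed. Nnmt was at 0.61, 0.80, 0.78 and 0.62 TPM in 24-month-old WT and 1.34, 1.41, 1.25 and 0.84 TPM in 24-month-old UBR4 mKO. Each UBR4 mKO sample exceeded each WT sample on TPM, and UBR4 mKO replicate 4 fell within the WT range after median-of-ratios scaling. Nnmt was the least abundant gene of the set. Its mean over all samples, 1.01 TPM, was just above the filter of 1 TPM and passed it through the UBR4 mKO groups, with means of 1.17 and 1.21 TPM at 6 and 24 months, while the WT means were 0.935 and 0.703 TPM. Its test after that filter is therefore given no weight. With no filter on low values the log2 fold change was 0.69 (limma adjusted p = 0.135), which did not pass, and without replicate 3 of 24-month-old UBR4 mKO, or without both samples that stood apart, it was 0.67. The other 8 genes had log2 fold changes between -0.10 and 0.12 at this age, with overlapping groups.

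Genes expressed by other cells of the muscle differed in part at 24 months, the comparison in which Nnmt separated the groups. The summed level of 7 fibroblast genes was 183.3 to 389.7 TPM in WT and 267.2 to 497.5 TPM in UBR4 mKO, and that of 7 adipocyte genes 220.4 to 289.7 TPM and 308.4 to 403.0 TPM. Most of the adipocyte sum was Fabp4, at 208.5 to 273.9 TPM and 294.4 to 333.7 TPM, which endothelial cells also express. Adipoq, which defines adipocytes, was at 0.821 to 2.59 TPM and 1.13 to 10 TPM. The summed level of 7 leukocyte genes was 26.3 to 54.9 TPM and 66.1 to 283.5 TPM, with the T-cell gene Cd3e at 0 to 0.159 TPM. Endothelial genes summed to 74.3 to 88.6 TPM and 59.7 to 94.7 TPM, and 5 Schwann cell genes to 12.8 to 23.5 TPM and 17.9 to 22.5 TPM. Their part in the Nnmt values was not tested.

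With age in WT, 2 of the 9 genes passed the threshold, Parp1 and Nampt, both higher at 24 months, while 25.1% of all genes passed and 24.0% passed as higher. Parp1 was at 15.8, 18.1, 15.1 and 13.2 TPM in 6-month-old WT and 19.2, 18.7, 20.2 and 23.1 TPM in 24-month-old WT. The ages did not overlap, and the log2 fold change was 0.39 (SE 0.12, limma adjusted p = 0.0265), or 0.12 relative to the median gene. Nampt was at 45.6, 52.3, 44.4 and 39.3 TPM and at 54.7, 67.6, 55.0 and 51.5 TPM. The ages overlapped, and the log2 fold change was 0.33 (SE 0.11, limma adjusted p = 0.0427), or 0.068 relative to the median gene. Leaving out 1 sample, Parp1 passed in 13 of 16 fits and Nampt in 5. After median-of-ratios scaling neither passed (limma adjusted p = 0.314 for Parp1 and 0.726 for Nampt). On that scale 9.77% of all genes passed, and of the set only Nmnat1, with a log2 fold change of -0.37 (SE 0.078, limma adjusted p = 0.00749). Its scaled values were 13.6 to 15 at 6 months and 10.6 to 11.5 at 24 months, without overlap. On TPM as deposited the change of Nmnat1 with age in WT was -0.10 (SE 0.092, limma adjusted p = 0.383).

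With age in UBR4 mKO, Nmnat1 alone of the 9 genes passed the threshold, while 6.29% of all genes passed. Its levels were 13.9, 14.3, 14.8 and 15.9 TPM at 6 months and 11.4, 11.2, 12.6 and 11.9 TPM at 24 months, without overlap. It fell by 0.32 on the log2 scale (SE 0.092, limma adjusted p = 0.0464), and by 0.26 after median-of-ratios scaling (limma adjusted p = 0.0412), where 11.3% of all genes passed. On that scale replicate 3 at 24 months, at 13.5, lay within the range of the 6-month-old samples. The adjusted p on TPM was close to the threshold, and Nmnat1 passed in 3 of the 16 fits that left out 1 sample, with values from -0.35 to -0.28. Without both samples that stood apart it had -0.31 (limma adjusted p = 0.0788). Sirt3 had a log2 fold change of -0.31 (SE 0.090, limma adjusted p = 0.0521) on TPM and -0.25 (limma adjusted p = 0.155) after scaling, with no overlap between ages on TPM. Without 24-month-old UBR4 mKO replicate 3 it was -0.35 (limma adjusted p = 0.0328). Without both samples that stood apart it was -0.35 (limma adjusted p = 0.0527) on TPM and -0.38 (limma adjusted p = 0.0235) after scaling. Both age comparisons share samples with the genotype comparisons, and their 6-month-old samples are those with Xist.

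A difference of the UBR4 mKO effect between ages passed the limma interaction test for 0 of the 9 genes, with 0 at an unadjusted p under 0.05, while 4.70% of all genes passed. The values on TPM ranged from -0.42 for Sirt1 (SE 0.28) to 0.40 for Nnmt (SE 0.26). After median-of-ratios scaling 0 of the 9 passed, and with array weights, which count outlying samples less and called 26.9% of all genes, 3 did on TPM: Nmnat1 (-0.25, limma adjusted p = 0.0446), Nmnat3 (-0.33, limma adjusted p = 0.0407) and Sirt3 (-0.37, limma adjusted p = 0.0259). The median interaction over all genes in that fit was -0.23, close to the value of Nmnat1.

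Among the other genes of the NAD network, 49 were listed and 33 had a mean of at least 1 TPM. Most enzymes of synthesis from tryptophan were barely expressed, with 1 of 9, Afmid, past the filter, whereas 14 of 15 PARP-family genes and all 5 further sirtuins were past it. In UBR4 mKO at 6 months 23 of the 33 genes passed the threshold, all higher, where 44.9% of all genes passed and 43.7% passed as higher. The median log2 fold change of the 33 was 0.54, against 0.33 for all genes tested. They comprised 10 of 14 PARP-family genes, 4 of 5 sirtuins, 3 of 4 NAD glycohydrolases and mono-ADP-ribosyltransferases, 3 of 5 genes of clearance, transport and redox, and 1 each of the 3 remaining synthesis lists. After median-of-ratios scaling 10 of the 33 passed, 6 higher and 4 lower, where 16.8% of all genes passed, and the median was 0.19.

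The largest increases were in Aox1, an aldehyde oxidase that oxidises methylated nicotinamide, and in Art5, an extracellular ADP-ribosyltransferase. Aox1 was at 4.67, 7.89, 4.98 and 3.59 TPM in WT and 11.6, 9.41, 10.5 and 11.2 TPM in UBR4 mKO, a log2 fold change of 1.06 (SE 0.21, limma adjusted p = 0.00147). Art5 was at 15.8 to 23.9 TPM in WT and 29.1 to 49.8 TPM in UBR4 mKO, with 0.89 (SE 0.17). The genotypes did not overlap for either gene, and both also passed after scaling, with 0.71 and 0.54.

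Parp3, a PARP of DNA repair, had the smallest adjusted p. It was at 35.4, 39.7, 35.3 and 32.9 TPM in WT and 62.4, 61.9, 71.3 and 68.4 TPM in UBR4 mKO, a log2 fold change of 0.88 (SE 0.087, limma adjusted p = 1e-05), and 0.53 after scaling (limma adjusted p = 0.000327). Parp8, Parp9 and the mitochondrial sirtuin Sirt4 had 0.83, 0.83 and 0.80 and also passed after scaling, with 0.48, 0.49 and 0.45. Parp14 and Cd38, the latter an NAD glycohydrolase of leukocytes and other cells, had 0.86 and 0.73 on TPM but did not pass after scaling (limma adjusted p = 0.175 and 0.11). The genes that passed as lower after scaling were Tiparp (-0.58), Art3 (-0.46), Parp6 (-0.26) and Slc25a51, a mitochondrial NAD carrier (-0.25), and on TPM none of these 4 passed.

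**Figure D4:**
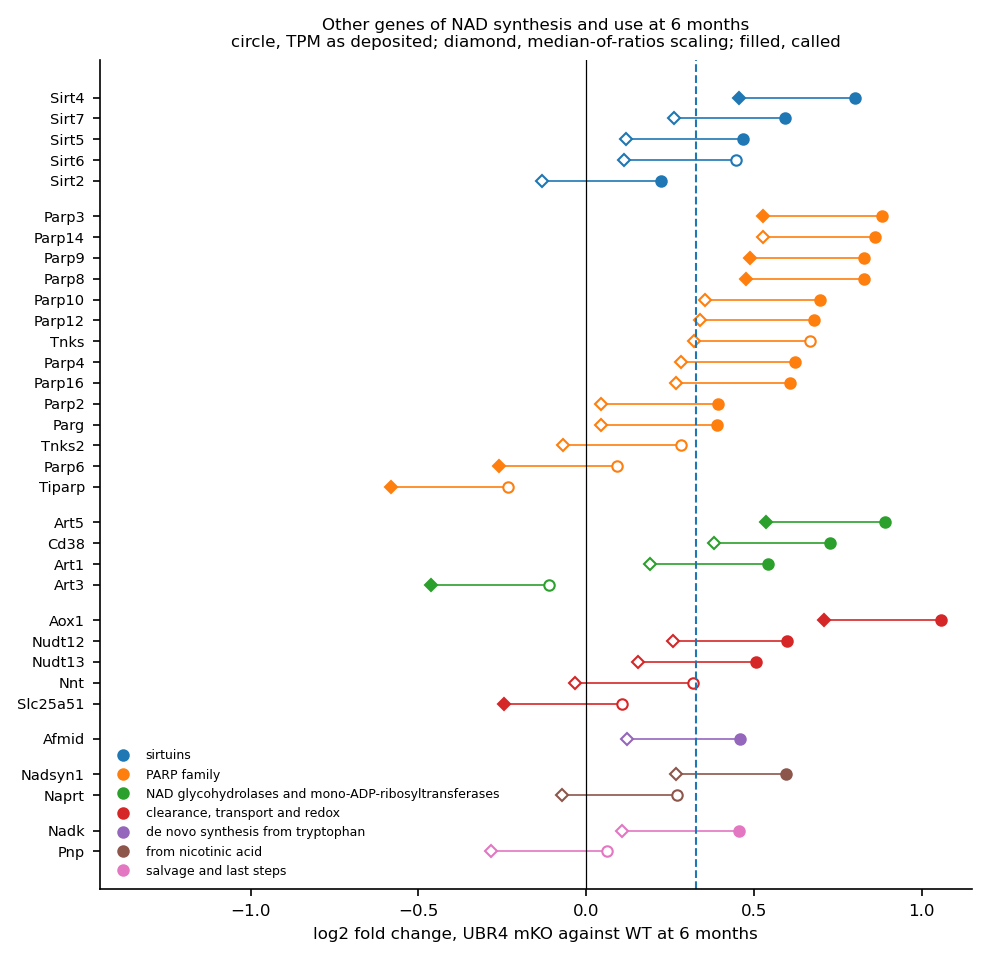
Log2 fold change in UBR4 mKO against WT at 6 months of the 33 further NAD genes that passed the filter, coloured by role, as deposited (circles) and after median-of-ratios scaling (diamonds), with filled symbols past the limma adjusted threshold and the dashed line at the median of all genes on TPM (0.33). Every gene shifts left on scaling; 23 circles are filled, all right of 0, whereas 6 diamonds right of 0 and 4 left of 0 are filled.

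Leukocyte genes also differed at 6 months. Their summed level was 13.8 to 20.5 TPM in WT and 46.7 to 159.5 TPM in UBR4 mKO, and Cd68, a macrophage marker, was at 0.411 to 0.660 TPM and 2.37 to 10.7 TPM. Cd38 was at 3.46 to 4.93 TPM in WT and 5.79 to 7.55 TPM in UBR4 mKO, and Parp14 at 1.07 to 1.56 TPM and 1.74 to 3.88 TPM. The part of these cells in the values of Cd38 and Parp14 was not tested.

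At 24 months 0 of the 33 further genes passed in the limma fit, where 0.630% of all genes did, with 4 at an unadjusted p under 0.05. With age in WT 6 of 33 passed, a smaller share than the 25.1% of all genes, and with age in UBR4 mKO and in the interaction 2 of 33 each, near the 6.29% and 4.70% of all genes, so these counts are no result about the list. With age in WT 5 were higher on TPM (Sirt7 with 0.60, Parp2 with 0.48, Parp9 with 0.45, Parp3 with 0.41 and Art1 with 0.37, and 0.097 to 0.35 after scaling) and 1 was lower, Naprt, which starts synthesis from nicotinic acid (-0.45, and -0.71 after scaling). After scaling Naprt alone of the 6 passed. With age in UBR4 mKO Cd38 and Aox1 fell by 0.92 and 0.76 (limma adjusted p = 0.0029 and 0.0378), and both passed after scaling. Without both samples that stood apart, Aox1 did not pass (-0.54, limma adjusted p = 0.138). The limma interaction called Parp3 (-0.68, adjusted p = 0.00716) and Parp9 (-0.80, adjusted p = 0.0309), with a smaller UBR4 mKO effect at 24 than at 6 months, and neither passed after scaling (adjusted p = 0.0934 and 0.118).

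The genes whose level followed Nmrk2 most closely over the 16 samples were sought among all genes tested. They were Phb, a prohibitin of the mitochondrial inner membrane (Pearson r = 0.90), Ppib, a cyclophilin of the endoplasmic reticulum (0.89), Vamp8, a SNARE of vesicle fusion (0.89), Ndufs4, a subunit of respiratory complex I (0.89), and Ppif, the mitochondrial cyclophilin (0.88). After the group means were subtracted, r was 0.77 for Phb, 0.50 for Ppib, 0.72 for Vamp8, 0.78 for Ndufs4 and 0.47 for Ppif. The order held on TPM only, since after median-of-ratios scaling r was 0.64 for Phb, 0.85 for Ppib, 0.79 for Vamp8, 0.61 for Ndufs4 and 0.87 for Ppif. At 6 months Phb averaged 107.2 ± 6.96 TPM (SD, n = 4) in UBR4 mKO, against 92.5 ± 2.05 TPM (SD, n = 4) for WT. As these genes were chosen by their likeness to Nmrk2 on the same samples, no test is given for them. Within the set, Nnmt (0.72) and Sirt3 (0.63) had the highest r with Nmrk2 over the 16 samples. After subtraction of group means their r was 0.15 and 0.18, so the higher values rest mostly on the group means. Inside groups the set ran the other way for several genes, with r = -0.76 for Sirt1, -0.69 for Nampt, -0.61 for Nadk2, -0.57 for Parp1 and -0.54 for Nmrk1 after subtraction of group means. These values describe 16 samples that share a scale of fixed sum and the samples that stood apart, and carry no test.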

How the data were processed

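RNA was sequenced from tibialis anterior muscles of 16 mice in 4 groups of 4, taken from the labels. After read trimming and alignment to GRCm38 (mm10 per the labels), the authors computed TPM in CLC Genomics Workbench and deposited it for all genes. The annotation release, the handling of multi-mapped reads and the use of strand are not given in the sources used here. Separate mice are labelled as replicates, and p-values measure the spread between them. The members and gene lists were chosen with earlier results of these data known.

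In R 4.3.3, limma 3.58.1 was fitted to log2(TPM + 0.1) of the 10628 genes that averaged 1 TPM or more, with 1 coefficient per group, a variance trend and no covariate. This scale understates changes of low genes. Benjamini-Hochberg adjustment was over all genes tested, with a threshold of 0.05. The test in the study's methods, Kruskal-Wallis with Dunn's test, was an alternative, since ranks of 4 samples a group give few distinct p-values. The fit was checked on simulated data. Replicate numbers did not pair the samples (the deviations of 24 same-numbered pairs had r from -0.35 to 0.18, 4 of them over 0.1). Median-of-ratios factors used 14470 genes, those detected in all samples, and the other alternatives were pseudocounts, filters, array weights, a replicate block, leaving out mitochondrial genes and leaving out samples.

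All members are named, with the genes of the NAD list called in a comparison (at most the 8 largest) and the 5 genes with the highest r with Nmrk2. Genes named beyond this rule were chosen after their values were seen. Positions are from GENCODE vM21 on GRCm38, near-identical transcripts were found with minimap2 2.31. Plots used matplotlib 3.10.9 in Python 3.11.15.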

Additional observations from a re-analysis of the deposited data

How the results depend on the processing

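Counts of the set past the threshold depended on the scale, as did the share of all genes called by the same fit, given in % beside each. At 6 months the count in UBR4 mKO against WT, 4 on TPM (44.9%), was 1 with median-of-ratios scaling (Parp1, 16.8%), 1 with mitochondrial genes left out (Nmrk2, 14.9%), 1 with Kruskal-Wallis and Dunn's test (Nmnat3, with Nmrk2 lost, 23.4%), 6 with array weights (Nampt and Sirt1 added, 64.1%), 3 without both samples that stood apart (Nmnat1 lost, 42.4%), 2 without both samples that stood apart and with that scaling (an alternative chosen after seeing the data, 26.8%), and 2 to 6 when 1 sample was left out (25.8% to 58.7%), with 2 without replicate 4 of 6-month-old WT. Nmnat1 reversed to -0.10 with median-of-ratios scaling, -0.0022 without mitochondrial genes and -0.10 without both samples and scaled. Parp1 reversed to -0.23 with that scaling and -0.25 without both samples and scaled. At 24 months the count of 0 became 1 with array weights (Nnmt, which passed the filter through UBR4 mKO, 2.39%), and that of the interaction, also 0, became 3 (26.9%). With age in WT the count of 2 (25.1%) was 1 with no filter on low values (10.8%), 1 with median-of-ratios scaling (9.77%), 6 with array weights (61.5%), 1 with the replicate block (19.0%), 0 with Kruskal-Wallis and Dunn's test (which called 0 of all genes), 4 without both samples that stood apart (40.1%), and 0 to 5 when 1 sample was left out (9.16% to 46.8%). It was 0 without replicate 3 or 4 of 6-month-old WT or replicate 4 of 24-month-old WT, and 5 without replicate 2 of 6-month-old WT (46.8%). With mitochondrial genes left out (9.90%), Parp1 and Nampt were lost. Nmnat1 (-0.29, limma adjusted p = 0.00685) and Sirt3 (-0.24, limma adjusted p = 0.0496) then passed, both lower. Without both samples that stood apart and scaled (19.0%), Parp1 and Nampt were again lost. There Nmnat1 (-0.37), Sirt3 (-0.32, limma adjusted p = 0.0221) and Nnmt (-0.62), which passed the filter through UBR4 mKO, were called as lower. With age in UBR4 mKO the count of 1 (6.29%) was 2 with a pseudocount of 1 (6.58%), with no filter (3.97%), with a mean TPM of at least 5 (6.36%) and with mitochondrial genes left out (9.27%), 3 with array weights (16.4%), 0 in the fit of only the groups compared (4.13%), 0 with the replicate block (5.01%), 0 with no variance trend (5.83%), 0 with Kruskal-Wallis and Dunn's test (0 of all genes), 0 without both samples that stood apart (6.54%), 3 without both and scaled (15.5%), and 0 to 2 when 1 sample was left out (3.52% to 7.28%). The replicate block left 3 genes past the threshold at 6 months (Nmnat1 lost, 39.9%) and 0 at 24 months (0.358%). The fit of only the groups compared lost Nmnat1 and added Nampt at 6 months (45.6%). Of 1415 values recomputed under 29 settings, 1303 counted as unchanged. A tested value counted so where it kept its side of the threshold. The Nmrk2 values given without a test counted so where they moved by less than the SD within groups, and 3 moved further. Among the tested values, 53 uncalled ones had the other sign. The causes of these differences were not tested. TPM keeps no read counts, so the precision that depth allows is unknown.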
